A study of Mus musculus with 9 samples.

Results

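The EGR and NR4A transcription factors Egr1, Egr2, Egr3, Nr4a1, Nr4a2 and Nr4a3 were followed across the treatment groups of a mouse glioma experiment. They were chosen by symbol, with earlier results of these data known, as were the gene lists below. Shares set beside those of all genes therefore describe these sets and do not test them. The symbols were matched through GENCODE M21 to the Ensembl identifiers of the count table. It lists 53801 genes, and all 6 were found in it. All 6 were also among the 12538 protein-coding genes with enough counts to be tested. RNA was sequenced from CD11b+ cells that had been sorted from the brain hemisphere carrying a GL261 tumor, and 9 libraries were made. Per the methods, the tissue was first dissociated with enzymes, cleared of myelin on a Percoll gradient and stained. The levels are those after this handling, and its part in the results was not tested.

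All mice were male C57BL/6J, aged 10 to 12 weeks at the start, and all carried GL261 cells, a mouse glioma line, here expressing tdTomato and luciferase. The CTR group (2 libraries) received saline vehicle. The OAT-1746 group (2 libraries) received an oral inhibitor of the arginases ARG1 and ARG2 at 50 mg/kg. The anti-PD-1 group (2 libraries) received an antibody to the checkpoint receptor PD-1 at 2.5 mg/kg, and the COMB group (3 libraries) received both agents at these doses. For replicate 2 of anti-PD-1 the labels name a different antibody target, and its title decided its group. The sources give day 28 and, elsewhere, day 21 after implantation for the collection of the cells. CD11b is an integrin chain found on most myeloid cells, resident microglia and blood-derived cells alike, and on some NK cells, so each library is a mixture of cell types. Itgam, the gene for CD11b, ranged from 294 to 446 CPM (counts scaled to the library total, here normalized by TMM) in the 9 libraries. Library totals ranged from 13048075 to 18796479 read pairs. In such bulk samples, fewer cells of a type and less RNA per cell cannot be told apart.

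EGR proteins are zinc finger factors and NR4A proteins are orphan nuclear receptors. Both families are encoded by immediate early genes, which are transcribed soon after a cell receives a signal and need no new protein synthesis for it. Signals reach them through ERK and SRF, which binds the CArG box, and through CREB, which binds the cAMP response element (CRE), and in macrophages both families respond to inflammatory stimuli. NAB1 and NAB2 are co-repressors that bind EGR proteins, and NR4A1 and NR4A2 can pair with RXR receptors.

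Promoter windows of 300 bases were available in the RefSeq table (GRCm38.p6) for 4 of the 6 genes and are shown because these genes varied together across the libraries. Egr1 and Egr3 had no entry. Capitals mark the CRE half-site (TGACG on either strand), the EGR site (GCGNGGGCG on either strand) and the CArG box. The Egr2 window lies at chr10:67537619-67537918 (plus strand) and is 1 of 5 windows listed for this gene. It overlaps 2 of the others, which hold the same CArG box and half-sites. Of the remaining 2, 1 holds a different CArG box and neither holds a half-site. The other, at chr10:67535249-67535548, holds none of the motifs searched. Its start site lies 24 bases from the GENCODE gene start, against 2394 bases for the printed window. The windows of Nr4a1 at chr15:101266596-101266895 (plus strand), Nr4a2 at chr2:57123954-57124253 (minus strand) and Nr4a3 at chr4:48045055-48045354 (plus strand) are the only ones listed.
Egr2: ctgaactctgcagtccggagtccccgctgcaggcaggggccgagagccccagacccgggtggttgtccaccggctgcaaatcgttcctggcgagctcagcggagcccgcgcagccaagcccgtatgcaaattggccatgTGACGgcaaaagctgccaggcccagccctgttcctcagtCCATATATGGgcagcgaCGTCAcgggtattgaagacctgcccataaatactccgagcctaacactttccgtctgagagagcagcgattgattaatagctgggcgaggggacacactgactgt
Nr4a1: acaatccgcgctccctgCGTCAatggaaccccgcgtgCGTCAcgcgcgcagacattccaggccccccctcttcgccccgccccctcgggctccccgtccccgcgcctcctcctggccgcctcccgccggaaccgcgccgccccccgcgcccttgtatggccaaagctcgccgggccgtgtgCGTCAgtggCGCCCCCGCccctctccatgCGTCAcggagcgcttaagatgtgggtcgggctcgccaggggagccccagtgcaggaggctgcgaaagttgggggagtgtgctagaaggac
Nr4a2: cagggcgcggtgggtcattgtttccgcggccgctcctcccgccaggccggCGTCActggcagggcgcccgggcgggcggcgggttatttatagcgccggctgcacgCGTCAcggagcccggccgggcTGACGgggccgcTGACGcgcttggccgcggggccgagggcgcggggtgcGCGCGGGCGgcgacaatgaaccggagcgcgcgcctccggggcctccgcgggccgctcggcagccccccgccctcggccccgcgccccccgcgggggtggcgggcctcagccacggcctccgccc
Nr4a3: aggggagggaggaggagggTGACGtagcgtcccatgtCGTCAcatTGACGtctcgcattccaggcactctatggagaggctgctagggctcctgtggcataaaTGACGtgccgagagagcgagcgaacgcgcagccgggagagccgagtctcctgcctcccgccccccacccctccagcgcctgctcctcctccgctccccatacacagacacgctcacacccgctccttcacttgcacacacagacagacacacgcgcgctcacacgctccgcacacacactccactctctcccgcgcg

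The windows of Nr4a1, Nr4a2 and Nr4a3 each held 4 CRE half-sites. Of 32851 windows in the table, 20.8% held at least 1 half-site and 0.231% held 4 or more. The printed Egr2 window held 2 half-sites and a CArG box. A CArG box was in 1.63% of all windows and in 4 of the 5 listed for Egr2. An EGR site, found in 5.55% of all windows, was present once in the windows of Nr4a1 and Nr4a2 and 3 times in that of Nab1, and in none of those of Egr2, Nr4a3, Egr4 and Nab2. The full CRE (TGACGTCA, in 1.79% of all windows), the NR4A site (AAAGGTCA, in 1.51%) and the AP-1 site (TGANTCA, in 7.81%) were in none of the 4 printed windows. A MEF2 site, in 3.19% of all windows, was in that of Nr4a2 alone. All motifs were searched on both strands. The half-site was added to the search after the windows had been read, and the cutoff of 4 equals the count in the Nr4a windows. The share of 0.231% therefore describes the table and is no test of these windows. A match describes the letters in a window and does not show that a factor binds there.

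Egr1, the most studied member of its family, was at 767 and 851 CPM in CTR, 2591 and 3730.0 in OAT-1746, 655 and 1117 in anti-PD-1, and 224, 231 and 256 in COMB. Both OAT-1746 libraries were above all others, the 3 COMB libraries were below all others, and the CTR libraries lay between those of anti-PD-1. Egr2, a relative of Egr1 with a role in macrophage and myelin gene programs, was at 41.6 and 14.8 CPM in CTR, 32.3 and 79.5 in OAT-1746, 12.96 and 33.3 in anti-PD-1, and 11.0, 5.15 and 5.74 in COMB. The COMB libraries were again the lowest, and the other groups overlapped. Egr3 was at 13.9 and 8.88 CPM in CTR, 12.8 and 42.2 in OAT-1746, 3.69 and 7.72 in anti-PD-1, and 3.19, 2.71 and 3.97 in COMB. The COMB libraries were below those of CTR and OAT-1746 and overlapped anti-PD-1 replicate 1.

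Nr4a1 (Nur77), which is induced in myeloid cells by inflammatory signals, was at 253 and 228 CPM in CTR, 229 and 481 in OAT-1746, 114 and 307 in anti-PD-1, and 66.0, 49.5 and 64.6 in COMB. The COMB libraries were the lowest, and those of the other groups overlapped. Nr4a2 (Nurr1), an orphan receptor best known from dopamine neurons, was at 4.51 and 2.53 CPM in CTR, 2.68 and 4.23 in OAT-1746, 1.46 and 6.14 in anti-PD-1, and 1.48, 1.52 and 1.42 in COMB. Its lowest count was 20 read pairs, and COMB overlapped anti-PD-1 replicate 1. Nr4a3 (Nor1) was at 19.3 and 16.8 CPM in CTR, 19.7 and 18.0 in OAT-1746, 14.4 and 35.3 in anti-PD-1, and 9.27, 7.59 and 8.29 in COMB. The COMB libraries were below all others for this gene too. Thus 4 of the 6 genes (Egr1, Egr2, Nr4a1 and Nr4a3) had every COMB library below the other 6, as did 3.34% of all genes tested.

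**Figure D1:**
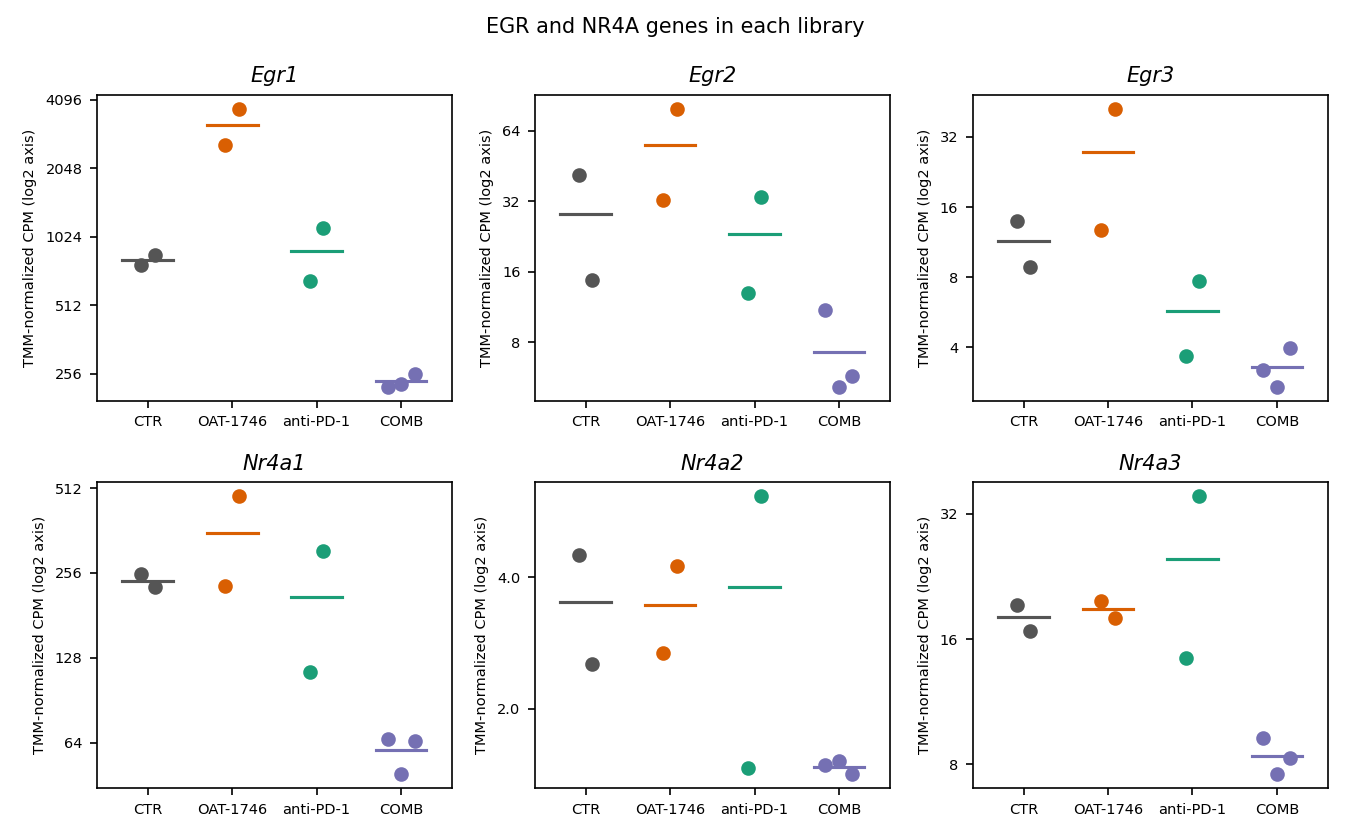
TMM-normalized CPM (log2 axis) of the 6 genes by group; each point is a library and each line a group mean. The 3 COMB libraries are the lowest for Egr1, Egr2, Nr4a1 and Nr4a3 and overlap anti-PD-1 replicate 1 for Egr3 and Nr4a2.

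The interaction asks whether the effect of OAT-1746 differs between mice with and without the antibody. It is the log2 fold change of COMB over anti-PD-1 minus that of OAT-1746 over CTR, from edgeR's quasi-likelihood test with Benjamini-Hochberg adjustment over all 12538 genes. All 6 estimates were negative. For Egr1 it was -3.87 (standard error 0.37, 95% interval -4.71 to -3.03), with the smallest adjusted p of all genes tested (0.0285). It was the only one of the 6 called at an adjusted p under 0.05 by edgeR, where 0.351% of all genes were called lower. Its parts were a difference of 1.97 between OAT-1746 and CTR and of -1.90 between COMB and anti-PD-1. The estimate for Egr2 was -2.66 (standard error 0.86, edgeR adjusted p 0.121). That for Nr4a1 was -2.37 (standard error 0.61, edgeR adjusted p 0.0958). Those for Egr3 (-2.08, standard error 0.74), Nr4a3 (-1.64, standard error 0.46) and Nr4a2 (-1.35, standard error 0.80) had edgeR adjusted p values of 0.135, 0.106 and 0.306. At an unadjusted p under 0.05, 5 of the 6 were lower, against 14.4% of all genes. DESeq2 called 4 of the 6 lower (Egr1, Egr2, Nr4a1 and Nr4a3), against 5.42% of all genes. Over the 16 alternatives the adjusted p ranged from 0.0248 to 0.402 for Egr2, 0.0117 to 0.400 for Egr3, 0.00500 to 0.400 for Nr4a1 and 0.0301 to 0.400 for Nr4a3. Without OAT-1746 replicate 1, edgeR also called Egr2 (0.0248), Egr3 (0.0117) and Nr4a1 (0.0120), in a fit that called 2734 genes, 1094 of them lower (8.52% of those tested). Without anti-PD-1 replicate 1 it called Nr4a3 (0.0332), among 35 genes, all lower (0.271%). The estimates ranged from -3.57 (without CTR replicate 1) to -1.81 (without anti-PD-1 replicate 2) for Egr2 and from -2.69 (without OAT-1746 replicate 1) to -0.95 (without OAT-1746 replicate 2) for Egr3. For Nr4a1 and Nr4a3 they ranged from -2.91 and -2.13 without anti-PD-1 replicate 1 to -1.47 and -0.84 without replicate 2.

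The Egr1 estimate stayed between -4.20 and -3.42 in the 16 alternatives run, and its adjusted p was under 0.05 in 10 of them (2.93e-20 to 0.218). Of the 6 alternatives above the threshold, 5 left out a library. The edgeR adjusted p was 0.218 without CTR replicate 1, 0.168 without CTR replicate 2, 0.0564 without anti-PD-1 replicate 2, 0.0994 without COMB replicate 2 and 0.145 without COMB replicate 3. In those 5 cases 0 genes were called, where 45 were called with all libraries, while 2734 were called without OAT-1746 replicate 1, 424 without COMB replicate 1 and 26 without OAT-1746 replicate 2. Without OAT-1746 replicate 2, the library in which Egr1 was highest, the Egr1 estimate was -3.56 with an edgeR adjusted p of 0.0163. The Nr4a2 estimate was 0.05 without anti-PD-1 replicate 2, so its direction rested on that library.

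COMB against OAT-1746 asks what the antibody added to the inhibitor. All 3 COMB libraries were below both OAT-1746 libraries for each of the 6 genes, as for 28.9% of all genes tested. edgeR called 5 of the 6 lower in COMB, against 8.94% of all genes. Egr1 had the smallest adjusted p of all genes, with a log2 fold change of -3.74 (standard error 0.26, edgeR adjusted p 0.00148), a level 13.3 times lower in COMB. Egr3 fell by 3.06 on the log2 scale (standard error 0.50, edgeR adjusted p 0.0178) and Egr2 by 2.94 (standard error 0.59, edgeR adjusted p 0.0247). Among the receptors, the log2 fold change was -2.56 for Nr4a1 (standard error 0.41, edgeR adjusted p 0.0171) and -1.17 for Nr4a3 (standard error 0.31, edgeR adjusted p 0.0412). Nr4a2 did not pass, at -1.23 (standard error 0.55, edgeR adjusted p 0.141).

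The Egr1 call held in each of the 16 alternatives. Each of the other 4 calls was lost in several alternatives. Without OAT-1746 replicate 2 the log2 fold changes were -2.14 for Egr2, -1.95 for Egr3, -1.92 for Nr4a1 and -1.22 for Nr4a3, with edgeR adjusted p values of 0.156, 0.0991, 0.0991 and 0.170. Without COMB replicate 2 these p values from edgeR were 0.106, 0.0876, 0.0876 and 0.139, and without COMB replicate 3 they were 0.113, 0.107, 0.107 and 0.139. Among the left-out libraries, the Nr4a3 call was also lost without CTR replicate 1 (edgeR adjusted p 0.0625), CTR replicate 2 (0.0638) or OAT-1746 replicate 1 (0.0552). limma voom gave Nr4a3 an adjusted p of 0.0524. The range over the 16 alternatives was 1.40e-05 to 0.217 for Egr2, 2.04e-07 to 0.212 for Egr3, 8.18e-08 to 0.212 for Nr4a1 and 0.00883 to 0.227 for Nr4a3. The number of genes called in this comparison was 1979 with all libraries. It was 734 without CTR replicate 1, 808 without CTR replicate 2, 4033 without OAT-1746 replicate 1, 27 without OAT-1746 replicate 2, 861 without anti-PD-1 replicate 1, 927 without anti-PD-1 replicate 2, 2923 without COMB replicate 1, 14 without COMB replicate 2 and 5 without COMB replicate 3.

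**Figure D2:**
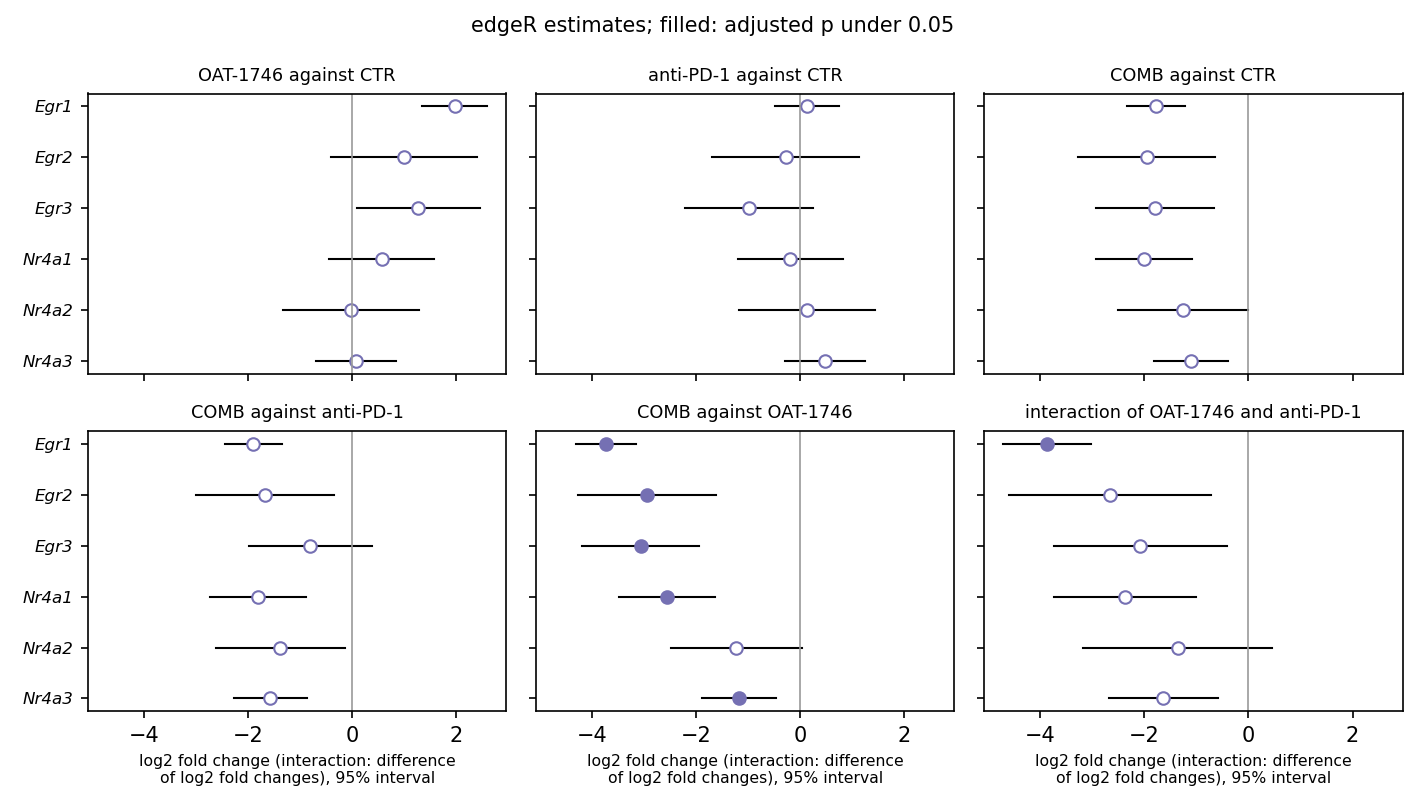
Log2 fold changes of the 6 genes in each comparison, with 95% intervals from edgeR; for the interaction the axis is a difference of log2 fold changes, and filled points have an adjusted p under 0.05. In COMB against OAT-1746, 5 points are filled, and in the interaction only that of Egr1.

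OAT-1746 against CTR asks what the inhibitor did alone. Egr1 was the only member whose OAT-1746 libraries both lay above the CTR libraries, as for 30.8% of all genes. Its log2 fold change was 1.97 (standard error 0.28), with an edgeR adjusted p of 0.0599. None of the 6 was called by edgeR, nor was any other gene (0%), while 2013 genes were higher and 2036 lower at an unadjusted p under 0.05. Of the 6, 2 (Egr1 and Egr3) were higher at that level, against 16.1% of all genes. DESeq2 called 1972 genes and limma voom 0. DESeq2 called Egr1 alone of the 6 higher, against 8.7% of all genes, and over the 16 alternatives the adjusted p of Egr1 ranged from 1.07e-08 to 0.273. With edgeR, Egr1 passed without OAT-1746 replicate 1 (0.00174, with 3617 genes called), without COMB replicate 1 (0.0465, with 278 genes called) and with no filter on low counts (0.0125, with 587 genes called). Egr3 was at 1.27 (standard error 0.52, edgeR adjusted p 0.134), at 0.18 without OAT-1746 replicate 2 and at 1.88 without replicate 1 (edgeR adjusted p 0.00918; 0.00918 to 0.856 over the alternatives). Egr2 was at 0.99 (standard error 0.62), and between 0.21 without OAT-1746 replicate 2 and 1.93 without CTR replicate 1. Nr4a1 was at 0.56 (standard error 0.45), and at -0.06 without OAT-1746 replicate 2. Nr4a3 (0.06, standard error 0.34) and Nr4a2 (-0.02, standard error 0.58) were close to 0, and their sign changed between alternatives.

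The antibody alone was compared with CTR in the same way. edgeR called 0 genes (0%), with 399 higher and 243 lower at an unadjusted p under 0.05, and none of the 6 was among these 5.12%. DESeq2 called 14 genes, none of the 6 among them, and limma voom 0. The log2 fold changes lay between -0.99 for Egr3 (standard error 0.54) and 0.47 for Nr4a3 (standard error 0.34). The 95% interval for Egr1, -0.48 to 0.74, leaves room for a difference in either direction.

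COMB was also compared with CTR and with anti-PD-1, comparisons that share the COMB libraries. Against CTR, all 6 log2 fold changes were negative, from -2.00 for Nr4a1 (standard error 0.41) to -1.10 for Nr4a3 (standard error 0.32). edgeR called 0 genes (0%), with 403 higher and 422 lower at an unadjusted p under 0.05. At that level 5 of the 6 were lower, against 3.37% of all genes. DESeq2 called 35 genes and limma voom 0. DESeq2 called Egr1 and Nr4a1 lower, against 0.13% of all genes. The Egr1 estimate was -1.77 (standard error 0.24, edgeR adjusted p 0.268), and it passed edgeR's threshold with no filter on low counts (0.0396; 3.63e-08 to 1.00 over the alternatives).

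Against anti-PD-1, edgeR called 0 genes (0%), with 248 higher and 659 lower at an unadjusted p under 0.05. At that level 5 of the 6 were lower, as were 8 of 12 AP-1 subunits (66.7%), 17 of 28 other immediate early genes (60.7%), and 5 of 12 (41.7%) both of the MAPK phosphatases and feedback inhibitors and of the heat shock genes, against 5.26% of all genes. DESeq2 called 47 genes and limma voom 0. DESeq2 called Egr1, Nr4a1 and Nr4a3 lower, against 0.369% of all genes. The log2 fold changes were -1.90 for Egr1 (standard error 0.24, edgeR adjusted p 0.206), -1.81 for Nr4a1 (standard error 0.40) and -1.57 for Nr4a3 (standard error 0.31). Leaving out a library brought Egr1 under the threshold of edgeR in 3 cases, with adjusted p values of 0.0254 without OAT-1746 replicate 1, 0.0292 without OAT-1746 replicate 2 and 0.0374 without anti-PD-1 replicate 1. Nr4a3 passed without anti-PD-1 replicate 1 (edgeR adjusted p 0.0374). The range over the alternatives was 1.95e-09 to 1.00 for Egr1 and 0.00566 to 1.00 for Nr4a3. In those 3 cases edgeR called 52, 41 and 5 genes. With no filter on low counts Egr1 also passed (edgeR adjusted p 0.0384). Without anti-PD-1 replicate 2, the log2 fold changes were -1.46 for Egr1, -0.92 for Nr4a1 and -0.78 for Nr4a3, the smallest over the alternatives.

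By mean level, Egr1 stood in the order OAT-1746 (3160.4 CPM ± 806, SD, n = 2), anti-PD-1 (886 ± 327, n = 2), CTR (809 ± 59.1, n = 2) and COMB (237 ± 16.7, n = 3). Neighbours in an order are called apart here where their libraries did not overlap, with no test. The anti-PD-1 and CTR libraries overlapped. Nr4a1 followed the order OAT-1746 (355 CPM ± 178, SD, n = 2), CTR (240.5 ± 18.0, n = 2), anti-PD-1 (210.3 ± 137, n = 2) and COMB (60.0 ± 9.15, n = 3), and only COMB was apart from its neighbour. The same order held for Egr2, with means of 55.9 (SD 33.4), 28.2 (SD 18.95), 23.1 (SD 14.4) and 7.29 CPM (SD 3.21), where again only COMB was apart. For Egr3, with 27.5 (SD 20.8), 11.4 (SD 3.57), 5.71 (SD 2.85) and 3.29 CPM (SD 0.638), only CTR and anti-PD-1 were apart, and their difference did not pass the test. Nr4a3 was highest in anti-PD-1 (24.9 CPM, SD 14.7), then in OAT-1746 (18.8, SD 1.25), CTR (18.0, SD 1.78) and COMB (8.38, SD 0.845), and only COMB was apart. For Nr4a2 the means of anti-PD-1 (3.80 CPM, SD 3.31), CTR (3.52, SD 1.40) and OAT-1746 (3.46, SD 1.10) came from libraries that overlapped, and COMB was at 1.47 (SD 0.0508). Per length, as CPM per kilobase of exon averaged over the 9 libraries, Egr1 was the most abundant at 258, above 98.6% of the genes tested. Nr4a1 followed at 56.7 and Egr2 at 7.73. Nr4a3 (2.76), Egr3 (2.4999) and Nr4a2 (0.711) were lower, and Nr4a2, the scarcest of the 6 on this scale, was above 19.05% of the genes tested. By group, Egr3 (6.25) was above Nr4a3 (3.15) in OAT-1746 and below it in the other groups.

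The replicates of a group also differed. In anti-PD-1, replicate 2 was above replicate 1 for all 6 genes, from 1.71 times for Egr1 to 4.20 times for Nr4a2, while 51.2% of all genes were higher in replicate 2. In OAT-1746, replicate 2 was above replicate 1 for Egr1, Egr2, Egr3, Nr4a1 and Nr4a2, by up to 3.30 times for Egr3, and Nr4a3 was at 0.911 times, while 50.3% of all genes were higher in replicate 2. In CTR, replicate 1 was at 2.82 times replicate 2 for Egr2, 1.78 times for Nr4a2 and 1.57 times for Egr3, and at 0.902 to 1.15 times for Egr1, Nr4a1 and Nr4a3, while 50.1% of all genes were higher in replicate 1. In COMB, the highest library was at 1.14 times the lowest for Egr1 and at 2.13 times for Egr2. Over the 9 libraries, Pearson correlations of log2 CPM between members ran from 0.609 (Egr3 and Nr4a3, Spearman rho 0.717) to 0.940 (Egr2 and Nr4a1, Spearman rho 0.983), and without OAT-1746 replicate 2 those pairs had r of 0.750 and 0.916. These libraries share groups, so the correlations describe both treatment and replicate differences.

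Of the 12532 other genes tested, Fosb, an AP-1 subunit, had the pattern most like the mean standardized log2 CPM of the 6 (Pearson r 0.989, Spearman rho 1 over 9 libraries, and r 0.997 over 8 without OAT-1746 replicate 2). Fosb was at 332 and 208 CPM in CTR, 302 and 1203 in OAT-1746, 102 and 399 in anti-PD-1, and 53.4, 43.0 and 44.9 in COMB. It was therefore highest in OAT-1746 replicate 2 and lowest in COMB, with anti-PD-1 replicate 1 below the other libraries outside COMB. The next were Spty2d1 (r 0.987), Hsf1 (r 0.982), which encodes the main heat shock factor, and Pmaip1 (r 0.977), which encodes the BH3-only protein NOXA. Dennd4b, Dzip1, Zc3h12a, Morc3, Paxip1 and Prrc2a completed the 10, with r from 0.964 to 0.968, and Dzip1 had a mean of only 0.377 CPM. Of these 10 genes, 5 were shared with the 10 most alike without OAT-1746 replicate 2 and 3 with the 10 by Spearman rho. In all, 154 genes (1.23%) had r over 0.9.

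Partners of the 2 families were counted as a list of 8 genes, of which 7 were tested, and edgeR called 0 of them in the interaction, with 0 also at an unadjusted p under 0.05, by DESeq2 and by limma voom. Of all genes, edgeR called 0.351% lower, 14.4% were lower at an unadjusted p under 0.05 and DESeq2 called 5.42% lower. With 7 genes, 0 is close to these shares. In COMB against OAT-1746, edgeR called 0, and Rxra alone was lower at an unadjusted p under 0.05 (14.3%, against 18.8% of all genes). DESeq2 called 1 lower, a count given here without its share of all genes. The co-repressor gene Nab2 ranged from 40.6 to 65.3 CPM, with an interaction of -0.27 (standard error 0.24). Nab1 ranged from 77.0 to 129 CPM apart from OAT-1746 replicate 2, at 36.2. Rxra, which encodes a partner receptor, ranged from 92.7 to 158 CPM. Egr4, the remaining EGR gene, had 9 and 2 read pairs in OAT-1746, 3 in anti-PD-1 replicate 2 and 0 in the other 6 libraries, and was not tested.

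Upstream of the members, 26 genes for SRF, CREB and MEF2 factors and ERK pathway kinases were tested. In the interaction 0 were called by edgeR, DESeq2 or limma voom, 7 were lower at an unadjusted p under 0.05 (26.9%, against 14.4% of all genes), and the median was -0.30 beside -0.02 for all genes tested. In COMB against OAT-1746, edgeR called 6 lower (23.1%, against 8.94% of all genes) and 1 higher (Map2k2, named after its value was seen). Mef2a was at 277 and 346 CPM in CTR, 478 and 636 in OAT-1746, 235 and 281 in anti-PD-1, and 308, 239.7 and 257 in COMB. It was highest in both OAT-1746 libraries, and its log2 fold change in COMB against OAT-1746 was -1.05 (standard error 0.19, edgeR adjusted p 0.0211). Mef2c, a factor with a known role in microglia, was at -1.09 (standard error 0.25, edgeR adjusted p 0.0315). The Mef2a call was lost without OAT-1746 replicate 2 (edgeR adjusted p 0.132), COMB replicate 2 (0.0969) and COMB replicate 3 (0.112), in a range from 9.93e-05 to 0.217 over the alternatives. That of Mef2c was lost without these libraries (0.197, 0.120 and 0.132) and without anti-PD-1 replicate 1 (0.0501), in a range from 0.00255 to 0.224.

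Other immediate early genes were counted in the same comparisons. Of 12 AP-1 subunits tested, edgeR called 4 lower in the interaction (Jun, Jund, Atf3 and Mafk, the last 3 named after their values were seen) and 7 lower in COMB against OAT-1746. These are 33.3% and 58.3%, against 0.351% and 8.94% of all genes. Their medians were -1.30 and -1.16, beside -0.02 and 0.00 for all genes. Jun was at 1412 and 1244 CPM in CTR, 2826 and 4376 in OAT-1746, 1587 and 2184 in anti-PD-1, and 821, 671 and 718 in COMB. Both OAT-1746 libraries were above all others and the COMB libraries below all others. Its interaction was -2.80 (standard error 0.34, edgeR adjusted p 0.0289). The p was 0.218 without CTR replicate 1, 0.168 without CTR replicate 2, 0.144 without anti-PD-1 replicate 2, 0.0994 without COMB replicate 2 and 0.145 without COMB replicate 3, in a range from 2.64e-11 to 0.298. Of 28 other immediate early genes, 3 were called lower in the interaction (Ier2, Ier5 and Klf10, named after their values were seen) and 17 in COMB against OAT-1746, or 10.7% and 60.7% against the same 0.351% and 8.94%, with medians of -1.32 and -1.06. In the interaction DESeq2 called 8 of the 12 AP-1 subunits and 16 of these 28 genes lower, against 5.42% of all genes. At an unadjusted p under 0.05, 8 (66.7%) and 18 (64.3%) were lower, against 14.4% of all genes. limma voom called 3 lower in each list, against 0.279% of all genes. Klf4, with the lowest interaction estimate in the list of 28 among genes of at least 5 CPM, was at -3.26 (standard error 0.72, edgeR adjusted p 0.0817). It passed in 3 of the 16 alternatives, among them without OAT-1746 replicate 1 and with no filter on low counts (edgeR adjusted p 0.0403). Its adjusted p ranged from 0.000509 to 0.400 over the alternatives.

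**Figure D3:**
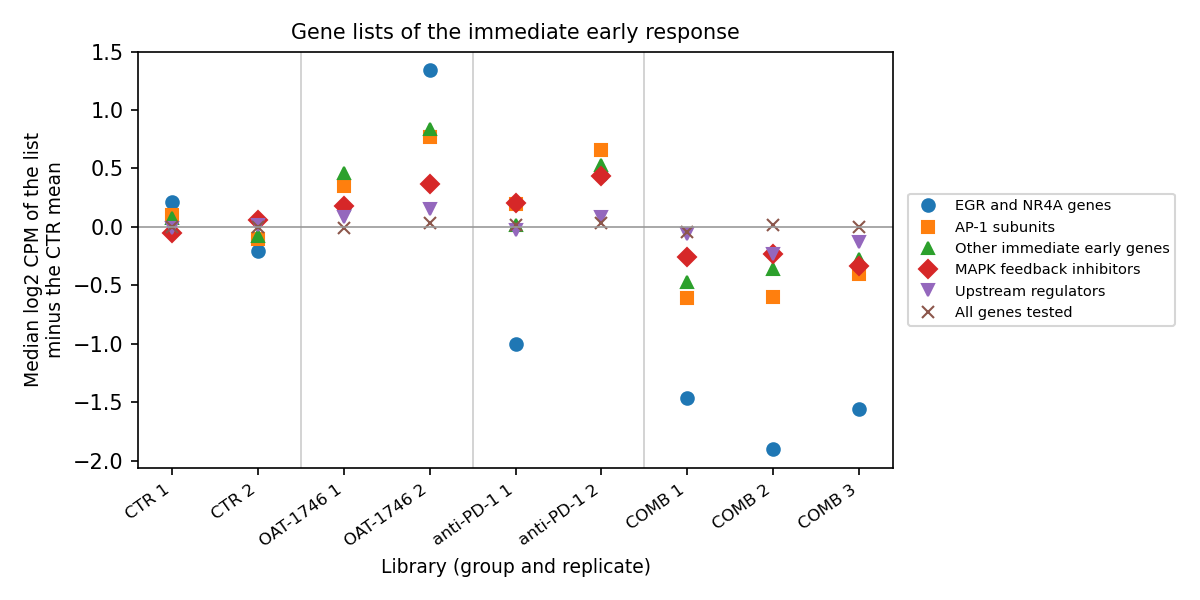
Median log2 CPM of each gene list minus the CTR mean, in each of the 9 libraries. The EGR and NR4A genes stand at 1.34 in OAT-1746 replicate 2 and between -1.90 and -1.46 in COMB, and all genes tested stay between -0.04 and 0.03.

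Among 12 MAPK phosphatases and feedback inhibitors, edgeR called 1 lower in the interaction and 5 lower in COMB against OAT-1746 (Dusp8 and, named after their values were seen, Dusp4, Dusp5, Dusp10 and Spry1), with medians of -1.14 and -0.74. These are 8.33% and 41.7%, against 0.351% and 8.94% of all genes. In the interaction 6 of the 12 were lower at an unadjusted p under 0.05 (50%, against 14.4% of all genes), and DESeq2 called 4 lower (against 5.42% of all genes). The gene called by edgeR in the interaction was Dusp8, a phosphatase acting on stress kinases, at 4.63 and 4.76 CPM in CTR, 20.7 and 37.5 in OAT-1746, 6.48 and 10.8 in anti-PD-1, and 3.56, 3.89 and 2.76 in COMB. Its order of groups was that of Egr1, with an interaction of -3.97 (standard error 0.47, edgeR adjusted p 0.0289). The p was 0.218 without CTR replicate 1, 0.168 without CTR replicate 2, 0.144 without anti-PD-1 replicate 2, 0.0994 without COMB replicate 2 and 0.145 without COMB replicate 3, in a range from 8.27e-11 to 0.218. Dusp1, a phosphatase induced by many stimuli, was at -0.60 (standard error 0.33, edgeR adjusted p 0.277). Of 12 genes described elsewhere as EGR1 targets, 1 was called lower by edgeR in both comparisons, with medians of -0.16 and -0.17. This share (8.33%) was no higher than that of all genes in COMB against OAT-1746 (8.94%), and all genes had 0.351% in the interaction. That gene was Tnf, at 123 and 151 CPM in CTR, 176 and 167 in OAT-1746, 94.98 and 149.96 in anti-PD-1, and 46.5, 43.2 and 36.9 in COMB. The COMB libraries were the lowest, and the interaction was -1.86 (standard error 0.31, edgeR adjusted p 0.0495). This call was lost in 11 of the 16 alternatives, with edgeR adjusted p values of 0.219 without CTR replicate 1, 0.168 without CTR replicate 2, 0.0666 without OAT-1746 replicate 2, 0.179 without anti-PD-1 replicate 2, 0.161 without COMB replicate 2 and 0.228 without COMB replicate 3, in a range from 3.67e-05 to 0.382. Mmp14 went the other way without passing the test, at 1.58 (standard error 0.67, edgeR adjusted p 0.179), and at 2.68 without OAT-1746 replicate 1 (0.00939; 0.00939 to 0.427 over the alternatives).

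Markers of cell types, heat shock genes and mitochondrial transcripts also differed between these libraries, and their part in the results was not tested. At an unadjusted p under 0.05, OAT-1746 exceeded CTR for all 12 microglia markers (16.1% of all genes), of which edgeR called 0, DESeq2 10 (8.70% of all genes) and limma voom 0. In COMB against OAT-1746, 11 of the 12 were lower at an unadjusted p under 0.05 (91.7%, against 18.8% of all genes), and edgeR called 3 of them lower (P2ry12, Sall1 and Selplg, named after their values were seen), or 25.0% against 8.94%. Their summed level was 21030 and 31299 CPM in CTR, 41066 and 50393 in OAT-1746, 29205 and 25187 in anti-PD-1, and 35436, 26831 and 26353 in COMB, with Csf1r the highest in CPM. None of the 12 was at 0 in any library, and both OAT-1746 libraries had the highest sums. The 10 monocyte and macrophage markers summed to 7984 and 8373 CPM in CTR, 6799 and 1596 in OAT-1746, 9474 and 9996 in anti-PD-1, and 6731, 6769.9 and 6953 in COMB, led by Lyz2 and with none at 0. OAT-1746 replicate 2 was thus the lowest in monocyte markers and the highest in microglia markers and in Egr1, Egr2, Egr3 and Nr4a1. Mitochondrial genes took 2.46% and 2.26% of the counts in OAT-1746 and 0.779% to 1.61% in the other libraries.

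Of 12 heat shock genes, which encode chaperones and their helpers, edgeR called 0 in the interaction (5 lower at an unadjusted p under 0.05, 3 by DESeq2 and 0 by limma voom) and 3 lower in COMB against OAT-1746 (Hspa1a, Dnajb1 and Bag3, named after their values were seen). Of all genes, 14.4% were lower in the interaction at an unadjusted p under 0.05, 5.42% were called lower by DESeq2, and edgeR called 8.94% lower in COMB against OAT-1746. In that comparison 8 of the 12 heat shock estimates were positive and 4 negative, with a median of 0.06. The 12 genes summed to 5800.2 and 4353 CPM in CTR, 4299.8 and 3388 in OAT-1746, 4075 and 6835 in anti-PD-1, and 3853, 4380.1 and 4485 in COMB, with Hspa8 the highest in CPM. None was at 0. The inducible gene Hspa1b, whose reads may be split with its near copy Hspa1a, was at 20.6 and 0.647 CPM in CTR, 7.97 and 122 in OAT-1746, 30.9 and 45.6 in anti-PD-1, and 4.15, 4.75 and 7.09 in COMB. It was highest in OAT-1746 replicate 2, as were 4 of the members. Its interaction was -5.46 (standard error 1.73, edgeR adjusted p 0.117), and ranged from -9.46 without CTR replicate 1 to -2.41 without OAT-1746 replicate 2. It passed only without OAT-1746 replicate 1 (-6.36, edgeR adjusted p 0.0138; 0.0138 to 0.400 over the alternatives).

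**Figure D4:**
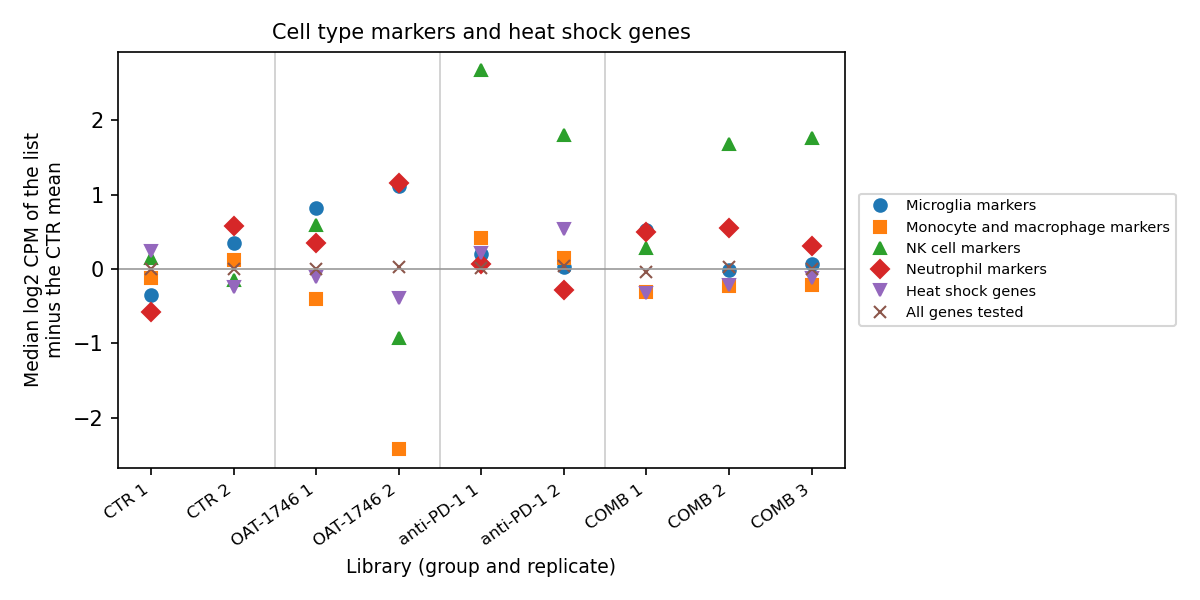
Median log2 CPM of marker lists and heat shock genes minus the CTR mean, in each of the 9 libraries. Monocyte and macrophage markers stand at -2.41 in OAT-1746 replicate 2, and NK cell markers between 1.68 and 2.67 in both anti-PD-1 libraries and in COMB replicates 2 and 3.

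NK cell markers (10 genes, none at 0) summed to 77.9 and 83.3 CPM in CTR, 111 and 25.3 in OAT-1746, 332 and 201 in anti-PD-1, and 86.0, 173 and 184 in COMB, with Klrk1 the highest by mean CPM and Gzma above it in OAT-1746 replicate 2, anti-PD-1 replicate 1 and COMB replicates 2 and 3. COMB replicate 1 was near CTR in these markers. Neuron markers summed to between 4.29 and 16.1 CPM over 8 genes, with 1 of them at 0 in CTR replicate 2. Both OAT-1746 libraries had the highest sums (16.1 CPM each). Tubb3 was the highest by mean CPM over the 9 libraries, but Snap25 and Nefl were above it in both OAT-1746 libraries. edgeR called 3 of the 8 (37.5%, against 8.94% of all genes) lower in COMB against OAT-1746 (Snap25, Nefl and, named after its value was seen, Rbfox3). The 10 T cell markers summed to between 12.4 and 32.2 CPM, with up to 3 at 0 in a library. The 10 neutrophil markers, none at 0 and led by Csf3r, summed to 323 and 496 CPM in CTR, 533 and 713 in OAT-1746, 384 and 377 in anti-PD-1, and 449.6, 454 and 449 in COMB. Both OAT-1746 libraries had the highest sums, of which Csf3r alone made up 382 and 475 CPM. S100a9, Ngp and Camp were each higher in every COMB library than in OAT-1746 replicate 1. Over the 14 marker lists of cell types (99 genes tested), edgeR and limma voom each called 0 genes in the interaction. DESeq2 called 3 higher and 2 lower. Of all genes, DESeq2 called 9.5%, and 5.42% were called lower. At an unadjusted p under 0.05, 4 of the marker genes were higher and 12 lower (12.1%, against 14.4% of all genes). At that level 4 of 12 microglia (33.3%), 3 of 8 neuron (37.5%) and 2 of 10 NK cell markers were lower, and all 12 microglia estimates were negative. The medians were -0.82, -1.45 and -1.12 in these lists, -1.10 for erythroid and -0.98 for T cell markers, and between -0.42 and 1.05 in the other 9, beside -0.02 for all genes. In COMB against OAT-1746 edgeR called F13a1 of the monocyte list, Aldh1l1 of the astrocyte list and Sox2 of the glial progenitor list higher, and Csf3r of the neutrophil list and Gfap of the astrocyte list lower, F13a1 and Sox2 named after their values were seen. Of all 12538 genes, edgeR called 858 higher and 1121 (8.94%) lower in this comparison.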

How the data were processed

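The study sorted CD11b+ cells and made 9 stranded poly-A libraries in 4 groups. The authors deposited raw counts of read pairs per gene. Per their methods and processing notes, reads were trimmed with Trimmomatic, aligned to mm10 with STAR, flagged for duplicates with Picard and counted with HTSeq in reverse stranded mode above a minimum mapping quality. The counts carry no normalization.

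Of 53801 genes, 53620 had an entry in GENCODE M21. The 21890 protein-coding genes were kept, and filterByExpr (minimum count 10) left 12538. edgeR 4.0.16 in R 4.3.3 scaled the libraries by TMM and fitted 1 mean per group over all 9 libraries (quasi-likelihood, common biological coefficient of variation 0.214), giving 6 contrasts. Standard errors come from the fold change and its F statistic. A gene was called where its p, adjusted by Benjamini-Hochberg over all genes tested, was under 0.05. Log2 CPM used a prior count of 2. The fit was tested on simulated data.

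Genes named were the members, Egr4, Nab1 and Nab2, the 3 most abundant genes and the extreme interaction estimates (mean of at least 5 CPM) of each list, and the 10 genes most like the members; not all are described. Genes outside this rule are marked in the text as named after their values were seen. The members and the lists were chosen with earlier results of these data known. Alternatives were DESeq2 1.42.0, its size factors in edgeR, library size alone, no filter, all gene types, limma 3.58.1 voom, a replicate block and leaving out each library. Replicates are biological per the methods, and no pair agreed within sampling noise.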

Additional observations from a re-analysis of the deposited data

Results flagged for a closer look

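The interaction tests whether the effect of OAT-1746 differs between mice with and without the antibody, and edgeR called it for 45 genes. Among these were Egr1, Jun, Dusp8 and Tnf. The log2 estimate was -3.87 for Egr1 (edgeR adjusted p 0.0285), -2.80 for Jun (0.0289), -3.97 for Dusp8 (0.0289) and -1.86 for Tnf (0.0495). For Egr1, Jun and Dusp8, both OAT-1746 libraries were above all others and the 3 COMB libraries below all others. COMB was below all others for 3.34% of all genes tested, and no share was computed for OAT-1746 above all others. These genes were flagged because the interaction test called them, so their order is no separate support. For Tnf, the COMB libraries were below all others, and its call held in 5 of 16 alternatives and was lost without OAT-1746 replicate 2 (edgeR adjusted p 0.0666; 3.67e-05 to 0.382 over the alternatives). Without CTR replicate 1, CTR replicate 2, anti-PD-1 replicate 2, COMB replicate 2 or COMB replicate 3, 0 genes were called in this comparison by edgeR, beside 1476 higher and 1805 lower at an unadjusted p under 0.05 with all libraries, 1053 by DESeq2 and 35 by limma voom.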

How the results depend on the processing

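Of the 36 fold changes (6 genes in 6 comparisons), 26 kept their sign in all 16 alternatives run. With 2 libraries in most groups, counts of called genes moved widely, and the cause was not tested.

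In the interaction (45 genes), DESeq2 called 1053, library size alone 24, no filter 146 and all gene types 18, and leaving out a library gave 0 to 2734. In OAT-1746 against CTR (0), DESeq2 called 1972 and no filter 587, and leaving out a library gave 0 to 3617. In anti-PD-1 against CTR (0), DESeq2 called 14. In COMB against CTR (0), DESeq2 called 35 and no filter 2. In COMB against OAT-1746 (1979), DESeq2 called 3062, and leaving out a library gave 5 to 4033. In COMB against anti-PD-1 (0), DESeq2 called 47 and no filter 2, and leaving out a library gave 0 to 52. Where a group kept 1 library, it was assumed to vary like the others.

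With the replicate number as a block, 0 genes were called in the interaction and 2 in COMB against OAT-1746, and the log2 fold change of Nr4a2 in anti-PD-1 against CTR was -0.0640. The block also put the Egr1 interaction (adjusted p 0.106; 2.93e-20 to 0.218 over the alternatives) and, in COMB against OAT-1746, Egr2 (0.217), Egr3 (0.212), Nr4a1 (0.212) and Nr4a3 (0.227) over the threshold, as well as the calls of Jun, Dusp8, Tnf, Mef2a and Mef2c. Deviations of libraries with the same number correlated between -0.349 and 0.0999. In a group of 2 libraries the deviations mirror each other, so few of these values are independent. They cannot decide whether the numbers pair the libraries.

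The other 10 changed sign in at least 1 alternative. Nr4a2 in OAT-1746 against CTR was 0.0740 by library size alone and 0.0017 by limma voom, and in anti-PD-1 against CTR -0.0709 by limma voom. With a library left out, OAT-1746 against CTR ranged from -0.0558 to 0.99 for Nr4a1, -0.39 to 0.46 for Nr4a2 and -0.0418 to 0.18 for Nr4a3. Likewise, anti-PD-1 against CTR ranged from -0.31 to 0.47 for Egr1, -1.13 to 0.64 for Egr2, -1.09 to 0.36 for Nr4a1, -1.27 to 0.81 for Nr4a2 and -0.33 to 0.97 for Nr4a3. For Nr4a2, the interaction ranged from -2.03 to 0.0455 and COMB against anti-PD-1 from -2.06 to 0.0152.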
